A study of Arabidopsis thaliana with 24 samples.

Results

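AT2G41250, AT1G56300, AT4G16146 and AT1G49200 are 4 Arabidopsis genes among those with the widest daily swings in transcript level in whole rosettes. They were chosen by that swing, measured on these same arrays, and their values by time of day are therefore given as a description with no test. Each gene is represented by 1 probe set, and the 4 probe sets are among 11926 that were tested of 22746 on the array that are not controls; 6243 genes had a tested probe set assigned to them alone. All 4 reached the filter on low values, at least 3 arrays at 5 log2 or more, and each did so through the times of day at which it is high.

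The plants were wild type Arabidopsis thaliana of the ecotype Columbia-0, 32 days old, grown in a 12 h photoperiod. Water-limited plants had been watered for 28 days and then received none for 4 days, and well-watered plants were watered throughout. Rosettes were taken whole at clock times of 12, 18, 0 and 6 h, called midday, late day, midnight and pre-dawn, and hybridised to 24 Affymetrix arrays, with 3 arrays described as biological replicates in each of the 8 groups. The labels used here do not say at which hour the lights went on or off, or how many rosettes were pooled for an array, so p-values measure the spread between these arrays, whatever its source.

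Daily rhythms of plant transcripts are known to be set together by the circadian clock, by light and darkness, and by the supply of sugar, so that genes peak at characteristic times. The 4 genes belong to unrelated protein families; the annotation used here names them by locus only, and the families are given from general knowledge. AT2G41250 encodes a member of the haloacid dehalogenase (HAD) superfamily, which holds many phosphatases. AT1G56300 encodes a J-domain protein, the kind of co-chaperone that stimulates Hsp70. AT4G16146 encodes a protein of the endosulfine/ARPP19 family, whose animal and yeast members inhibit a form of protein phosphatase 2A once they are phosphorylated. AT1G49200 encodes a RING-H2 protein of the ATL family of ubiquitin ligases.

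Values are log2 levels as deposited, means are over 3 arrays with their SD, and a difference of 1 log2 is a doubling. Array medians lay between 4.66 and 4.86 log2. The table has a floor of 2.2 log2, where 25.6% of all values lie. None of the 96 values of the 4 genes lay at that floor, and the lowest of them was 2.90. No call of presence or absence was used here, so trough levels near 3 to 4 log2 are given as measured. The green-tissue genes LHCB4.2 and LHCB4.3, antenna proteins of photosystem II, lay between 11.55 and 14.04 log2 and between 8.27 and 10.06 log2 over the 24 arrays. The root-hair expansin gene EXPA7 reached at most 2.28 log2 and the root gene AT5G66390 at most 2.38. PYK10, a glucosidase abundant in roots, was above the floor at 4.59 to 8.04 log2. The labelled rosette tissue therefore had its 2 measured green-tissue markers and had 2 of 3 measured root markers near the floor; none of the 5 flower and 3 seed markers listed had a named probe set.

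AT2G41250 had a sharp peak at late day. In water-limited plants its 3 arrays read 6.80, 6.77 and 7.02 log2 at midday, 11.44, 11.38 and 12.06 at late day, 6.78, 6.88 and 7.06 at midnight, and 4.46, 3.69 and 4.40 at pre-dawn. With full watering they read 7.11, 6.59 and 7.19 at midday, 11.88, 11.99 and 12.10 at late day, 8.10, 7.92 and 7.57 at midnight, and 4.30, 4.31 and 8.35 at pre-dawn. Every late-day array lay above every array of the other times in both regimes. The late-day mean was 4.72 log2 above the next highest time, midnight, in water-limited plants and 4.12 log2 above it in well-watered plants. On the linear scale midday and midnight stood at 3.68% and 3.80% of the late-day level in water-limited plants, against 3.07% and 5.74% in well-watered plants. The pre-dawn trough was 0.575% of the peak in water-limited plants, a range of 7.44 log2 or 174-fold, and 1.24% in well-watered plants, a range of 6.33 log2 or 80.6-fold.

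The depth of the well-watered trough of AT2G41250 depended on 1 array, which raised its mean. Pre-dawn replicate 3 read 8.35 log2, which was 4.04 log2 (16.5-fold) above the mean of replicates 1 and 2 and 8.04% of the well-watered late-day level on the linear scale. The SD at that time was 2.33 log2, where the 95th percentile over all tested probe sets of the same group was 0.496. Without that array the well-watered trough was 4.31 ± 0.0042 log2 (SD, n = 2) and the range 7.68 log2 or 205-fold, against 7.44 in water-limited plants. Among the 6293 tested probe sets with exactly 1 gene, its range ranked 1st in water-limited plants; in well-watered plants it ranked 6th with all arrays and 1st without replicate 3.

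AT1G49200 was high at midday and late day and low at midnight and pre-dawn. In water-limited plants it read 8.49, 8.67 and 8.45 log2 at midday, 9.96, 9.39 and 9.63 at late day, 3.60, 4.20 and 4.44 at midnight, and 4.18, 4.06 and 4.70 at pre-dawn. With full watering it read 8.41, 8.24 and 8.74 at midday, 10.65, 10.68 and 10.27 at late day, 3.60, 4.70 and 4.10 at midnight, and 4.65, 4.42 and 6.79 at pre-dawn. All midday and late-day arrays lay above all midnight and pre-dawn arrays in both regimes. The whole range was crossed between late day and midnight, a drop of 5.58 log2 (47.9-fold) in water-limited plants and 6.40 log2 (84.4-fold) in well-watered plants. Midnight stood at 2.09% of the late-day peak in water-limited plants and at 1.19% in well-watered plants. Midnight and pre-dawn differed by 0.24 log2 in water-limited plants, less than the SD of either (0.43 and 0.34). Midday stood at 46.0% of the peak in water-limited plants and at 23.9% in well-watered plants.

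Well-watered pre-dawn replicate 3 was also the high array of AT1G49200, at 6.79 log2 against a mean of 4.53 in replicates 1 and 2. The distance was 2.25 log2 (4.77-fold), and the array stood at 7.46% of the well-watered late-day level. The peak and the trough of this gene lie at other times, so its ranges do not change without that array. Its range ranked 9th in water-limited and 5th in well-watered plants among probe sets with 1 gene.

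AT4G16146 had the opposite shape, with a deep trough at late day and high levels at the 3 other times. In water-limited plants it read 8.89, 9.32 and 8.90 log2 at midday, 4.07, 4.53 and 3.50 at late day, 9.15, 8.84 and 8.74 at midnight, and 10.12, 10.45 and 10.42 at pre-dawn. With full watering it read 8.83, 8.80 and 9.08 at midday, 4.43, 2.91 and 3.04 at late day, 8.42, 8.44 and 8.71 at midnight, and 9.98, 10.01 and 9.99 at pre-dawn. Every late-day array lay below every array of the other times in both regimes, and every pre-dawn array lay above all the rest of its regime. From midday to late day the mean dropped 32.1-fold in water-limited plants and 43.5-fold in well-watered plants. By midnight it was back at 37.4% of the pre-dawn peak in water-limited plants and at 36.2% in well-watered plants. The range was 6.30 log2 (78.5-fold) in water-limited plants and 6.53 log2 (92.5-fold) in well-watered plants, 4th widest among probe sets with 1 gene in both regimes.

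AT1G56300 was high at midnight and pre-dawn and low at midday and late day. In water-limited plants it read 5.48, 5.07 and 4.77 log2 at midday, 2.90, 4.10 and 3.23 at late day, 10.71, 10.19 and 10.07 at midnight, and 9.12, 9.75 and 9.44 at pre-dawn. With full watering it read 3.71, 5.46 and 5.42 at midday, 4.27, 3.35 and 3.24 at late day, 9.98, 10.04 and 10.50 at midnight, and 9.61, 9.50 and 9.55 at pre-dawn. Midday and late-day arrays overlapped in well-watered plants and did not in water-limited plants. The whole range was crossed between late day and midnight, a rise of 6.91 log2 (121-fold) in water-limited plants and 6.56 log2 (94.0-fold) in well-watered plants. Pre-dawn stood at 54.1% of the midnight peak in water-limited plants and at 65.0% in well-watered plants. Late day stood at 0.829% of the peak in water-limited plants and at 1.06% in well-watered plants. Its range ranked 3rd among probe sets with 1 gene in both regimes.

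**Figure D1:**
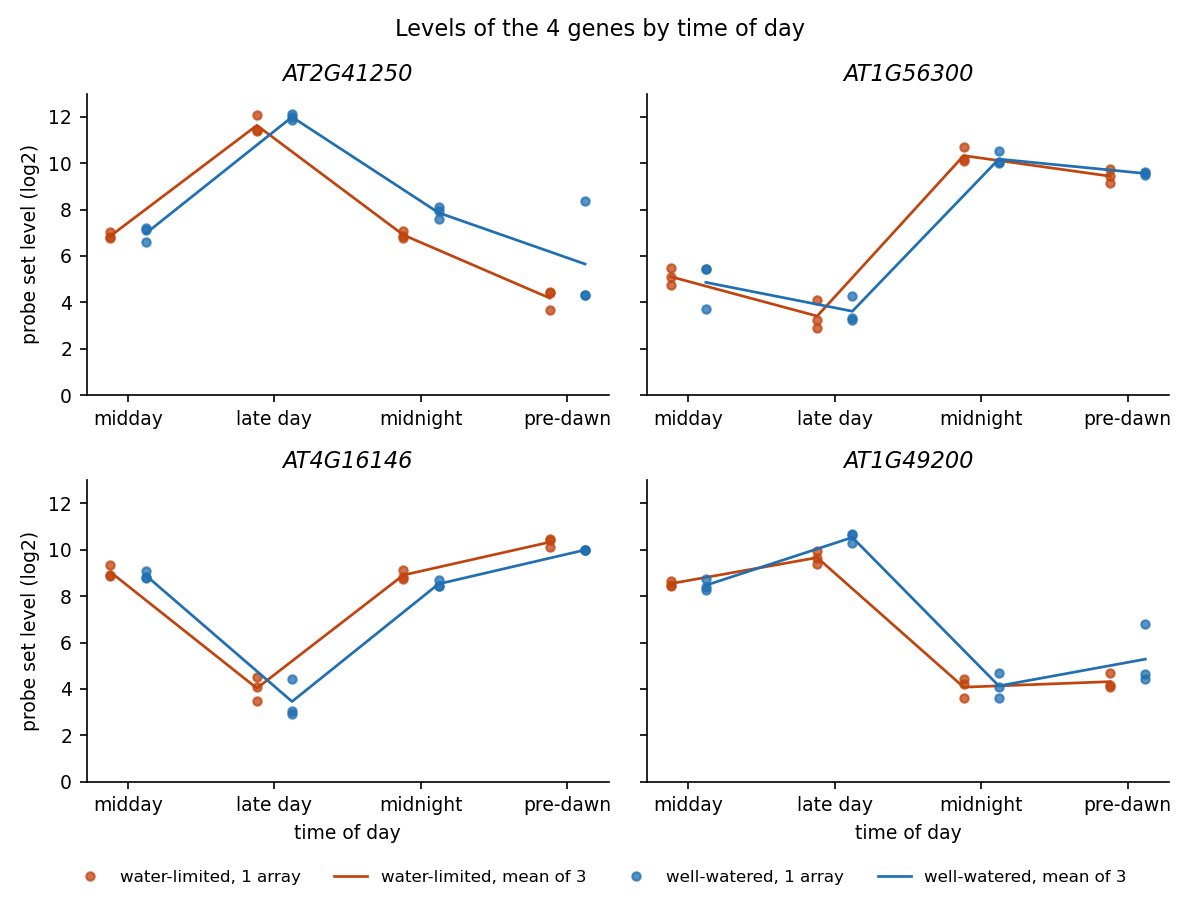
Log2 level of each gene's probe set (y axis) at 4 times of day (x axis); points are single arrays, lines join the means of 3 arrays, and water-limited plants stand left of well-watered plants at each time. The well-watered pre-dawn arrays of AT2G41250 spread from 4.30 to 8.35 log2 and those of AT1G49200 from 4.42 to 6.79 log2, while AT4G16146 and AT1G56300 hold close together at that time.

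Peak and trough fell at the same times in both regimes for each of the 4 genes. Late day was an extreme for all of them, as the peak of AT2G41250 and AT1G49200 and as the trough of AT4G16146 and AT1G56300. The step from late day to midnight covered the whole range in AT1G56300 and AT1G49200, and 77.4% of it in water-limited and 77.5% in well-watered plants in AT4G16146. In AT2G41250 it covered 63.4% in water-limited plants and 65.1% in well-watered plants, or 53.7% in well-watered plants without pre-dawn replicate 3. The step from midday to late day covered 79.5% of the range of AT4G16146 in water-limited and 83.4% in well-watered plants. In AT2G41250 it covered 64.0% in water-limited and 79.3% in well-watered plants, and without that array 65.4% in well-watered plants. In AT1G56300 that step covered 24.6% in water-limited and 19.0% in well-watered plants, and in AT1G49200 20.1% and 32.3%.

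The ranges that chose the genes lie far out among all tested probe sets, whose median range was 0.67 log2 in water-limited and 0.65 in well-watered plants, with a 99th percentile of 3.99 and 3.91. Other genes ranked among them. AT1G07050 had the 2nd widest range among probe sets with 1 gene in water-limited plants (6.94 log2) and the 1st in well-watered plants (7.32 log2). COR27, a cold-regulated gene tied to the clock, was 2nd in well-watered plants with 6.62 log2. Just inside the 5 widest among probe sets with 1 gene were COR27 with 6.29 log2 in water-limited plants and AT1G49200 with 6.40 log2 in well-watered plants. Just outside were GI, a clock gene, with 6.20 log2 in water-limited plants, and AT2G41250 with 6.33 log2 in well-watered plants. With probe sets that carry no gene name or several counted too, the 4 genes ranked between 8th and 34th in water-limited plants and between 12th and 17th in well-watered plants.

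**Figure D2:**
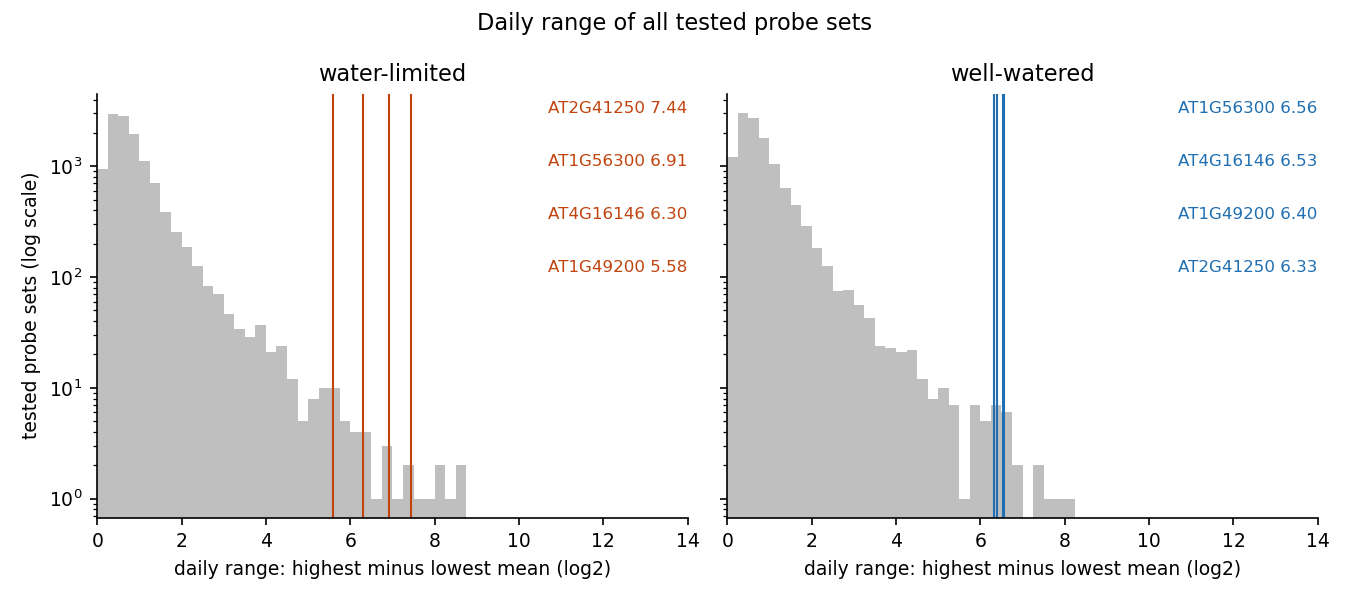
Number of tested probe sets (y axis, log scale) by daily range in log2 (x axis), the highest minus the lowest of 4 group means, for water-limited (left) and well-watered plants (right); vertical lines mark the 4 genes. The lines lie between 5.58 and 7.44 log2 in water-limited plants and between 6.33 and 6.56 log2 in well-watered plants, beyond the 99th percentiles of 3.99 and 3.91.

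The high reading of well-watered pre-dawn replicate 3 was shared by other probe sets that are high at late day. Probe sets were picked by the water-limited arrays alone, and then read in the well-watered pre-dawn arrays. Of 41 tested probe sets at least 4 log2 higher at late day than at pre-dawn, replicate 3 was the highest of the 3 arrays in 36 (87.8%), replicate 1 in 4 and replicate 2 in 1. With AT2G41250 and AT1G49200 left out it was highest in 34 of 39, with a median distance of 1.28 log2 from the mean of replicates 1 and 2. Of 43 probe sets at least 4 log2 higher at pre-dawn than at late day, which include AT1G56300 and AT4G16146, replicate 3 was the highest in 6, at a median distance of −0.05 log2. Over all tested probe sets it was the highest in 32.5%, with a median distance of −0.01 log2. Under water limitation the pre-dawn arrays were read likewise: 48 probe sets picked by the same 4 log2 distance in the well-watered arrays, with pre-dawn replicate 3 left out, were highest in replicate 1 in 18 cases, in replicate 2 in 7 and in replicate 3 in 20, and each array exceeded the mean of the other 2 by more than 1 log2 in 1 of them. What set that array apart was not tested, and results that rest on it are given below with and without it.

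**Figure D3:**
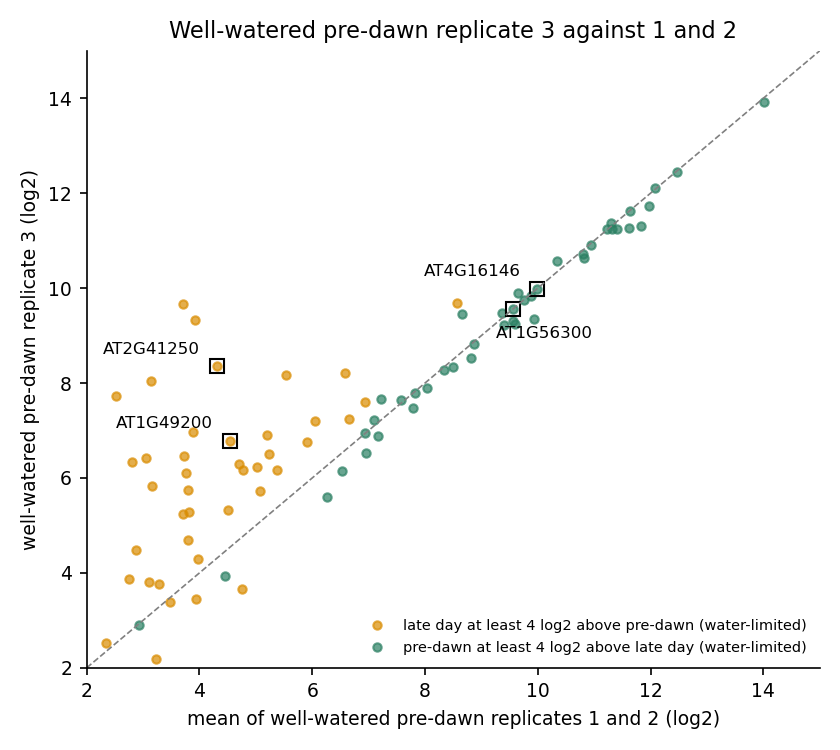
Level in well-watered pre-dawn replicate 3 (y axis, log2) against the mean of replicates 1 and 2 (x axis, log2) for probe sets that differ by at least 4 log2 between late day and pre-dawn in water-limited plants; squares mark the 4 genes and the dashed line marks equal levels. Of the 41 probe sets high at late day 36 are highest in replicate 3, and AT1G56300 and AT4G16146, high at pre-dawn, lie on the line.

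Water limitation was compared with full watering as the average of the 4 times, a contrast that does not enter the daily range. The average still takes in the peak and trough values by which the genes were chosen. It weighs them equally, where the range takes their difference. With an array of a peak or trough time left out, that balance is lost. In whole rosettes a lower level can stand for less RNA per cell or for fewer of the cells that hold it, and the arrays cannot tell these apart. None of the 4 genes passed an adjusted p of 0.05 in limma on that average, where 10.1% of all tested probe sets did. AT2G41250 had a water-limited minus well-watered difference of −0.72 log2 (SE 0.32, 95% interval −1.38 to −0.07, limma unadjusted p = 0.0324, adjusted p = 0.15). AT1G49200 had a difference of −0.46 log2 (95% interval −0.89 to −0.02, limma unadjusted p = 0.0395, adjusted p = 0.168). AT4G16146 had a difference of 0.36 log2 (95% interval 0.06 to 0.66, limma unadjusted p = 0.0225, adjusted p = 0.122). AT1G56300 had a difference of 0.02 log2 (95% interval −0.38 to 0.42, limma adjusted p = 0.97). With all arrays the intervals leave out an average change of 2-fold for AT1G56300, AT4G16146 and AT1G49200; for AT2G41250 the interval holds it with all arrays and leaves it out without well-watered pre-dawn replicate 3.

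Leaving out a single array moved the adjusted p of AT2G41250 and of AT4G16146 below 0.05. In each case the array belongs to the trough time by which the gene was chosen. The p-values without it are therefore a description and no test. With that pre-dawn replicate 3 left out, AT2G41250 averaged −0.39 log2 (SE 0.11, 95% interval −0.62 to −0.15, limma adjusted p = 0.0418, with 6.74% of probe sets called), smaller in size but past the threshold as the SE fell. The adjusted p of that average ran from 0.0418 to 0.319 over the 31 settings tried, and it was under 0.05 in that 1. The average of AT1G49200 was −0.27 log2 without the same array (limma adjusted p = 0.227). Without well-watered late-day replicate 1, whose reading of AT4G16146 was 4.43 log2 against 2.91 and 3.04 in the other arrays of its group, the average of AT4G16146 was 0.48 log2 (SE 0.10, limma adjusted p = 0.00736, with 8.8% of probe sets called). Its adjusted p ran from 0.00736 to 0.248 over 31 settings and was under 0.05 in that 1.

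At a single time the comparison was tested where it is neither the peak nor the trough of the gene. At midday no gene passed in limma, where 0% of all probe sets did; there the differences lay between −0.10 log2 for AT2G41250 and 0.25 log2 for AT1G56300 (adjusted p = 0.999 in each). At midnight all 3 water-limited arrays of AT2G41250 lay below all 3 well-watered ones; at that time the arrays did not overlap in 15.5% of all probe sets. Its mean was 6.91 ± 0.14 log2 in water-limited and 7.86 ± 0.27 log2 in well-watered plants (SD, n = 3 each), a difference of −0.96 log2 (SE 0.63, 95% interval −2.27 to 0.35, limma adjusted p = 0.555, with 0.386% of probe sets called). Without well-watered pre-dawn replicate 3 the same difference had an SE of 0.21, a 95% interval of −1.41 to −0.51 and a limma adjusted p of 0.0547.

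AT4G16146 at midnight averaged 8.91 ± 0.21 log2 in water-limited and 8.52 ± 0.16 log2 in well-watered plants (SD, n = 3 each). Its arrays did not overlap, as in 15.5% of all probe sets at that time. The difference was 0.38 log2 (95% interval −0.22 to 0.99, limma adjusted p = 0.625, with 0.386% of probe sets called). AT1G56300 at pre-dawn averaged 9.44 ± 0.31 log2 in water-limited and 9.55 ± 0.06 log2 in well-watered plants, with overlapping arrays and a difference of −0.12 log2 (95% interval −0.91 to 0.68, limma adjusted p = 0.887, with 7.24% of probe sets called). AT1G49200 at pre-dawn averaged 4.32 ± 0.34 log2 in water-limited and 5.28 ± 1.31 log2 in well-watered plants. That difference was −0.97 log2 (95% interval −1.83 to −0.11, limma adjusted p = 0.15), and −0.22 log2 without well-watered pre-dawn replicate 3 (limma adjusted p = 0.742). Without well-watered pre-dawn replicate 2, which keeps the high replicate 3, it was −1.40 log2 (limma adjusted p = 0.047), the only 1 of 32 settings under 0.05. In water-limited plants pre-dawn lay only 0.24 log2 above the midnight trough of AT1G49200. The choice of the gene by its trough can therefore bear on these p-values too. The GAPDH 3-prime minus 5-prime control difference, a measure of RNA quality, was 1.58 to 1.64 log2 at pre-dawn under water limitation and 1.31 to 1.48 log2 with full watering, and its part in the pre-dawn values was not tested.

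At the peaks and troughs the differences between regimes are a description only, since these values chose the genes. At late day AT1G49200 peaked at 9.66 ± 0.28 log2 in water-limited and 10.53 ± 0.22 log2 in well-watered plants, a difference of −0.87 (SE 0.41) with no overlap of the arrays, as in 13.5% of all probe sets at that time. The late-day peak of AT2G41250 differed by −0.36 log2, and by −0.58 to −0.24 log2 with each array left out in turn. Its SE comes from the spread shared by all groups, and was 0.63 with all arrays and 0.21 without well-watered pre-dawn replicate 3. The pre-dawn peak of AT4G16146 was 10.33 ± 0.18 log2 in water-limited and 9.99 ± 0.02 log2 in well-watered plants, a difference of 0.34 (SE 0.29) with no overlap, as in 31.8% of all probe sets at that time. Its late-day trough differed by 0.57 log2 (SE 0.29). That value was 1.06 log2 without well-watered late-day replicate 1 and 0.30 log2 without replicate 2 of the same group, the ends of its range with each array left out. The midnight peak of AT1G56300 differed by 0.15 log2 and its late-day trough by −0.21 log2 (SE 0.38 each). Leaving out 1 array turned the sign of both, to −0.043 log2 at midnight without water-limited midnight replicate 1 and to 0.12 log2 at late day without well-watered late-day replicate 1. The pre-dawn trough of AT2G41250 differed by −1.47 log2 with all arrays and by −0.12 log2 without well-watered pre-dawn replicate 3.

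**Figure D4:**
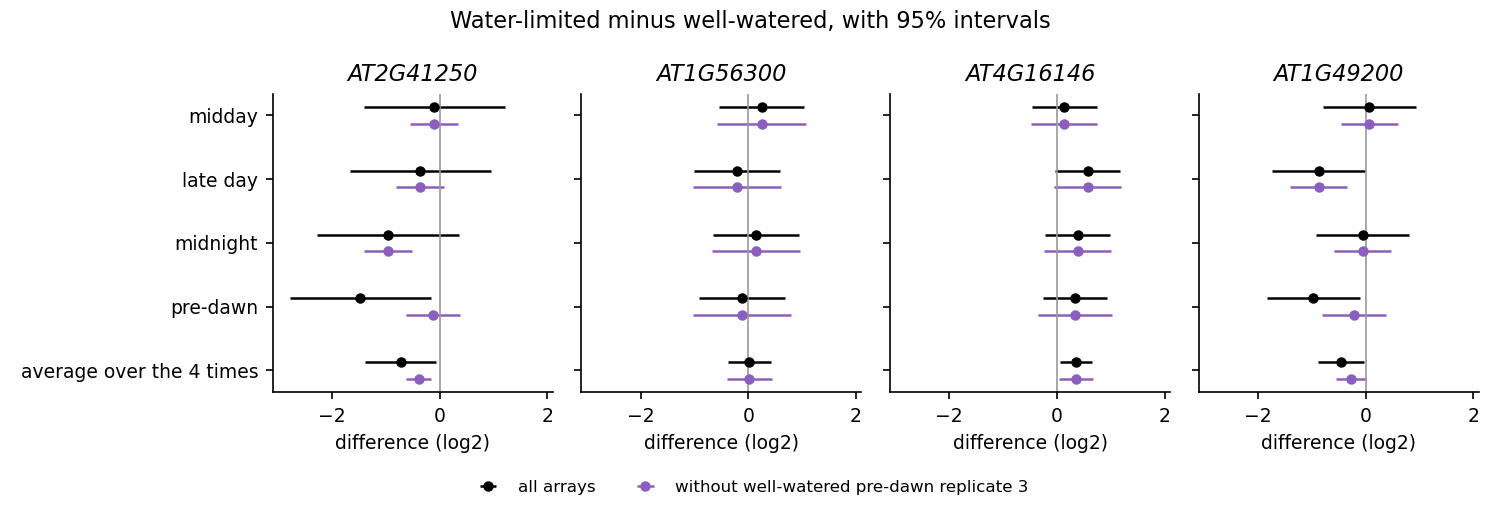
Water-limited minus well-watered difference of each gene in log2 (x axis) at 4 times and on average (y axis), with 95% intervals from limma, for all arrays and without well-watered pre-dawn replicate 3. At the peak and trough times of a gene the intervals are a description and no test, since these values chose the genes. The same holds for the averages of AT2G41250 and AT4G16146 without that array, as pre-dawn is the trough or the peak of these genes. For AT2G41250 leaving out that array moves the pre-dawn difference to −0.12 from −1.47 log2 and narrows every interval, while the values of AT1G56300 and AT4G16146 move by less than 0.01 log2.

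The genes whose profile was most like each of the 4 were found by the root-mean-square difference of the 8 group means, each profile centred on its own mean, among tested probe sets with 1 gene. This measure includes the size of the swing, and with every profile scaled to a range of 1 the 5 nearest shared 0 of 5 probe sets with those given here, for each of the 4 genes. The nearest to AT2G41250 was AT5G54130 at 0.88 log2, whose other probe set was the third nearest at 1.06. AT1G69160, the vacuolar sugar transporter gene SWEET2 and the F-box gene AFR followed at 1.00, 1.07 and 1.09 log2. All of these peaked at late day in both regimes, with ranges of 3.91 to 5.35 log2 in water-limited and 4.51 to 5.12 in well-watered plants. These are narrower than the ranges of AT2G41250, which was chosen for its wide swing. In each of these 5 probe sets well-watered pre-dawn replicate 3 was the highest of its group, by 0.38 to 1.26 log2 over the next. The group means used to find them include that array, which favours profiles raised in it, so this is a description only.

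The nearest profile to AT1G56300 was that of GI, a clock gene that also acts in flowering, at 0.65 log2, the smallest of the distances found for the 4 genes. GI peaked at the time labelled pre-dawn, with a mean of 8.52 log2 in water-limited and 8.44 in well-watered plants. Its trough, at the time labelled late day, was 2.32 in both. AT1G51090, AT5G62360, the cold-regulated chloroplast protein gene COR15B and AT1G70820 followed at 0.96 to 1.13 log2. The nearest to AT4G16146 were AT4G34950, a gene of the major facilitator superfamily, at 0.72 log2, and the pyruvate decarboxylase gene PDC2 at 0.91. AT1G07050, AT2G39920 and AT4G30660 followed at 1.09 to 1.14 log2, and all 5 had their trough at late day in both regimes.

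The nearest to AT1G49200 were AT3G15310 at 0.73 log2, AT3G19030 at 0.76, AT1G64500 at 0.92 and AT1G68440 at 0.94, all with a late-day peak in both regimes. The expansin gene EXPA16 followed at 1.15 log2 and had its water-limited peak at midday. Between the 4 genes themselves the distance was 1.84 log2 for AT2G41250 and AT1G49200 and 2.01 for AT4G16146 and AT1G56300, and 4.67 to 5.38 for the other pairs, which run against each other at late day.

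**Figure D5:**
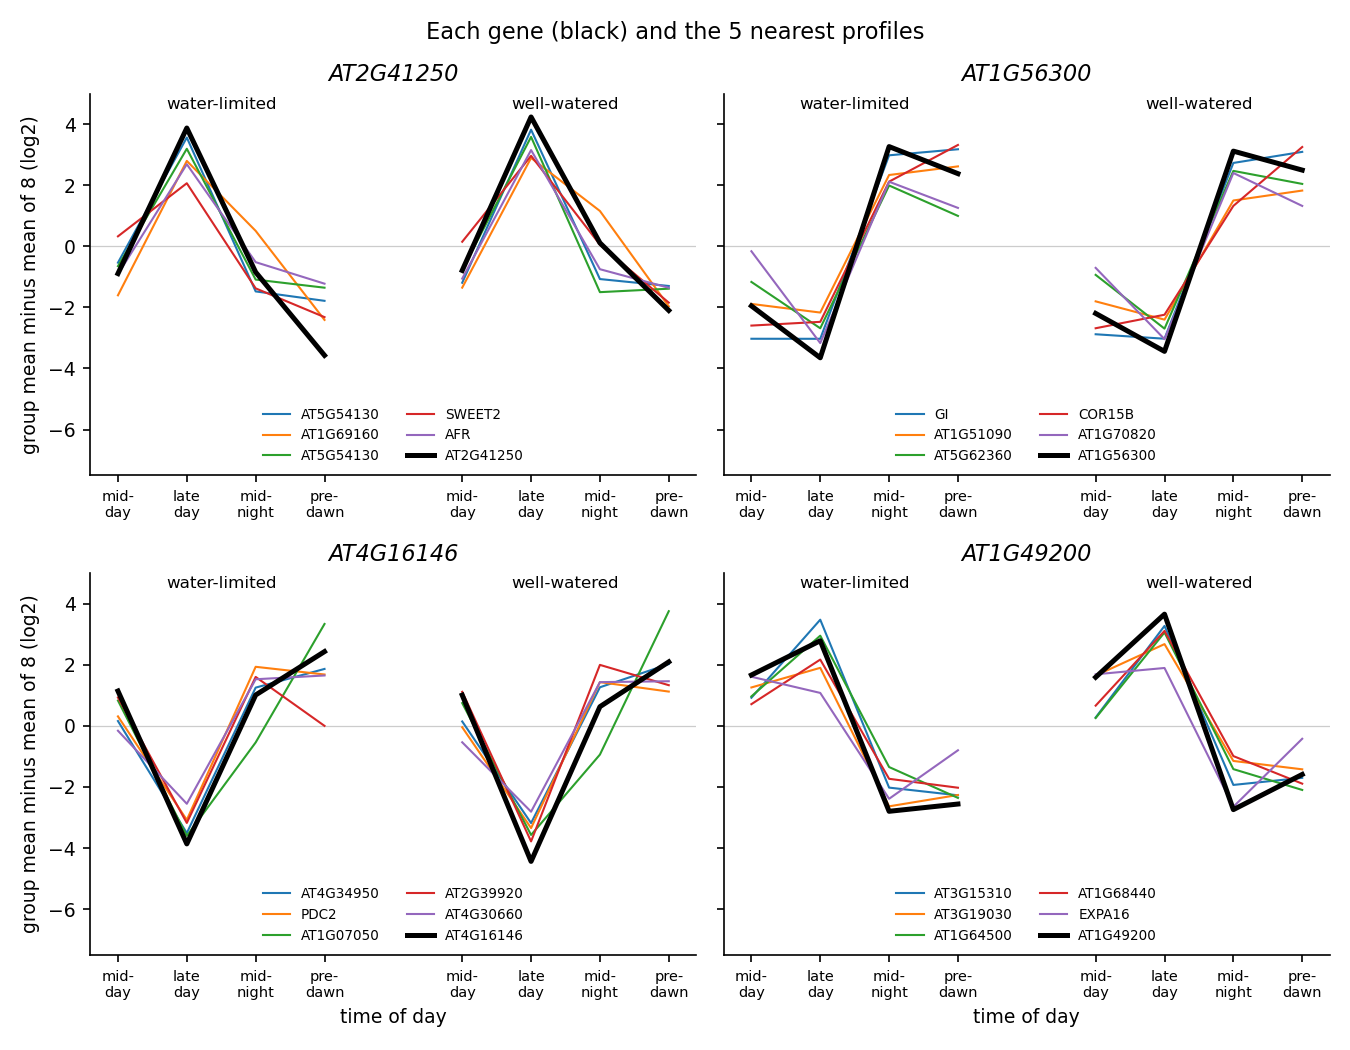
Group means in log2 minus the mean of the 8 groups (y axis) by time of day (x axis, water-limited left, well-watered right) for each of the 4 genes (thick black) and its 5 nearest profiles among tested probe sets with 1 gene. GI runs closest to AT1G56300, at a root-mean-square difference of 0.65 log2. AT2G41250, chosen for its wide swing, swings more widely than its 5 neighbours.

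The tested relatives of the 4 genes had narrower ranges, which the choice of the 4 by their wide ranges made likely beforehand. Of 18 other HAD genes listed, the annotation names 11, and 9 passed the filter and were tested. Of these, 6 differed between times in water-limited and 6 in well-watered plants (limma, adjusted p under 0.05), where 53.6% and 49.9% of all probe sets did. Their median range was 0.83 log2 in both regimes, and the widest was that of AT2G32150, with 3.08 log2 in water-limited and 2.78 in well-watered plants and a peak at midnight. Of 21 other J-domain genes listed, 10 were named and 5 tested, and 4 differed between times in water-limited and 2 in well-watered plants. AT3G14200 had the widest range of these, 1.96 log2 in water-limited and 2.06 in well-watered plants, with the midnight peak and late-day trough of AT1G56300.

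Of 16 other ATL genes listed, 6 were named and 3 tested, and 3 differed between times in water-limited and 2 in well-watered plants. Over all tested probe sets 53.6% and 49.9% did. AT5G47610 had the widest range, 3.27 log2 in both regimes, with a late-day peak and a midnight trough as in AT1G49200. AT1G49210 and AT1G49220, family members listed close to AT1G49200 on the chromosome by their locus numbers, stayed at or below 3.78 and 2.56 log2 on all 24 arrays and were not tested. Of the 2 other endosulfine/ARPP19 genes, AT5G64130 differed between times in both regimes, with ranges of 0.68 log2 in water-limited and 0.65 in well-watered plants and its peak at late day, where AT4G16146 has its trough. AT1G69510 had ranges of 0.26 and 0.60 log2 and did not pass (limma adjusted p = 0.615 and 0.0851).

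Of 28 clock genes listed, 4 were named and tested, and 4 differed between times in water-limited and 3 in well-watered plants. Among all tested probe sets the shares were 53.6% and 49.9%. By the labelled times, GI, COR27 and AT4G33980 had their peak at pre-dawn in both regimes, as AT4G16146 did. GI and AT4G33980 had their trough at late day, with ranges of 6.20 and 4.22 log2 in water-limited and 6.12 and 4.13 log2 in well-watered plants, and COR27 had its trough at midnight. The MYB-like clock gene AT5G52660 had a range of 0.93 log2 in water-limited and 0.64 in well-watered plants (limma adjusted p = 0.00319 and 0.0823). Of the green-tissue genes, LHCB4.2 peaked at midnight and LHCB4.3 at midday in both regimes. All peak and trough times given here are those of the labels. How the labelled times lie against lights on and off was not tested, so these times are not the known phases of the genes.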

How the data were processed

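The authors deposited 1 log2 value per probe set and array for 22810 probe sets and 24 Affymetrix arrays, computed with GCRMA (version not stated) per the submitters' processing notes. RNA came from a Trizol extraction and was biotin-labelled in a one-cycle assay, per the labels' protocols. No further scaling was applied. The 64 control probe sets were set aside. Probe sets with 5 log2 or more on at least 3 of the 24 arrays, in whatever groups, were tested. Names came from the platform annotation, updated to locus names through the TAIR10.1 gene table: 13513 probe sets had 1 gene, 503 several and 8730 none.

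All 24 arrays were fitted with limma 3.58.1 in R 4.3.3, with 8 group means, a spread shared by the groups (16 residual and 4.57 prior degrees of freedom), two-sided tests and Benjamini-Hochberg adjustment over the 11926 probe sets of each contrast. The test was tested on simulated data. Peaks, troughs and ranges are of group means. Named genes are the 4 genes, the 5 nearest profiles of each, genes next to them by range, and named members of 5 family and clock lists and of the tissue markers. The genes and lists were chosen with earlier results of these data known. The alternatives were other filters, moderation and scalings, a replicate block, group medians, 1 time alone, profiles scaled to a common range, and each array left out in turn. No sequence of the genes is shown. The number of arrays limits the precision.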

Additional observations from a re-analysis of the deposited data

How the results depend on the processing

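The genes' ranges moved by less than the spread between arrays under group medians, median centring, quantile normalization and each array left out, though for AT2G41250 in well-watered plants that spread is itself widened by pre-dawn replicate 3, and its range ran from 5.66 to 7.68 log2. With each array left out, the average drought effect ran from −0.89 to −0.39 log2 for AT2G41250, from −0.13 to 0.10 for AT1G56300, from 0.29 to 0.48 for AT4G16146 and from −0.56 to −0.27 for AT1G49200. Differences near 0 changed sign: at midday they ran from −0.039 to 0.21 for AT1G49200, −0.33 to 0.54 for AT1G56300, −0.29 to 0.012 for AT2G41250 and −0.0096 to 0.22 for AT4G16146, and at pre-dawn from −0.27 to 0.041 for AT1G56300. So did late-day and midnight differences, from −0.56 to 0.12 at late day and −0.043 to 0.31 at midnight for AT1G56300, and −0.32 to 0.23 at midnight for AT1G49200. Over all probe sets the counts called with an array left out ran from 735 to 1698 on average over the times (1205 with all arrays), 0 to 2 at midday (0), 11 to 33 at late day (25), 16 to 113 at midnight (46) and 91 to 1793 at pre-dawn (864). Without the filter there were 763 on average, 11 at midday and 547 at pre-dawn. With the stricter filter there were 11 at late day and 29 at midnight. With the arrays of 1 time fitted alone, pre-dawn had 7, and late day and midnight had 0 each. At midday 593 had an unadjusted p under 0.05 in limma.

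The replicate numbers did not pair the arrays: equal numbers of the 2 regimes had correlations of deviations from −0.538 to 0.093, none of 12 over 0.1, and 4 of 24 arrays matched best with their own number. With the replicate block 484 probe sets were called on average over the times, 199 at pre-dawn, 13 at late day and 8 at midnight, and no call of the 4 genes changed. Nearest profiles scaled to a range of 1 shared 0 of 5 with those reported for each gene; without well-watered pre-dawn replicate 3, 4 of 5 were shared for AT2G41250 and AT1G49200 and 5 of 5 for the other two genes. The cause of these moves was not tested.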
